A study of Mus musculus with 9 samples.

Results

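The genes described here are 44 genes of DNA replication and mitosis, listed by symbol and looked up by Ensembl identifier among the 55906 genes of the deposited expression table. All 44 were found. They comprised 25 genes that act at the G1/S transition and in S phase (G1/S genes) and 19 genes that act from late S phase to the end of mitosis (G2/M genes). All 44 reached 1 TPM in at least 3 of the 9 libraries and were tested among 11260 genes, and 43 reached it in every library, the exception being Cenpf. TPM is a transcript level corrected for length, with an equal sum in each library, so levels of different genes can be set side by side.

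The cells were BV2, a mouse microglial line with a wild-type genotype per the labels, immortalized with a retrovirus that carries the oncogenes v-raf and v-myc. Groups of 3 libraries each came from untreated cells (Control), cells given lipopolysaccharide (LPS), the bacterial cell wall component that activates Toll-like receptor 4, and cells given LPS with a treatment labelled Pilo (LPS+Pilo). No group received Pilo alone, and the sources used here give neither dose nor duration. Replicates are labelled biological, but separate cultures are not named, so the p-values measure the spread of these libraries, which may be technical. Differences are given on the scale of log2(TPM + 1), which understates changes of genes with low levels, and a gene was called when its Benjamini-Hochberg adjusted p in limma, taken over all tested genes, was under 0.05.

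Before a cell copies its DNA, the MCM helicase is loaded onto origins by Cdc6 and Cdt1 and is then switched on with Cdc45 and the GINS complex. Cyclin D and cyclin E kinases release E2F factors from the retinoblastoma proteins, and E2F factors drive the genes of DNA synthesis. Cyclin A and cyclin B with Cdk1 then carry the cell into mitosis, which ends when the anaphase-promoting complex, activated by Cdc20, has cyclin B and securin destroyed. Resident microglia divide rarely, whereas the BV2 line divides continuously in culture. In bulk RNA, fewer dividing cells and less of these RNAs per dividing cell cannot be told apart.

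Of 10 microglia and macrophage markers, 8 had a mean of at least 1 TPM. Their summed level was 3140 to 3250 TPM in Control, 2720 to 2830 TPM in LPS and 2570 to 2620 TPM in LPS+Pilo, and the part of this shift in the results was not tested. P2ry12 (0 to 0.40 TPM) and Aif1 (0.07 to 1.36 TPM), both microglial markers, were near 0. Tmem119 (2.15 to 3.05 TPM) and Cx3cr1 (1.04 to 4.57 TPM) were low. Most of the sum came from Cd68 (976 to 1219 TPM), Tyrobp (657 to 1296 TPM) and Fcer1g (632 to 941 TPM). Astrocyte, endothelial and fibroblast markers summed to at most 0.35 TPM in any library. Of the neuron markers Tubb3, which encodes a beta-tubulin, ranged from 164 to 457 TPM and the other 3 were at 0 in all libraries, and of the oligodendrocyte markers Mbp ranged from 3.94 to 6.57 TPM while the other 3 stayed at or under 0.41 TPM. Sequencing depth is unknown, since TPM hold no read counts. Libraries correlated at 0.971 to 0.986 within groups and 0.961 to 0.983 between groups.

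Many of these genes share short promoter elements. The E2F core motif was searched as TTCCCGC or as its variants with the letters TTCGCGC or else TTGCCGC or also TTGGCGC. The cell cycle homology region (CHR, bound by the MuvB complex) was searched as TTTGAA or as its variant TTCGAA, and the CCAAT box (bound by NF-Y) by the letters of its name. Each was searched on both strands, overlapping matches included, from 250 bases before to 50 bases after the transcription start in RefSeq promoters of GRCm38.p6. That table held 34 of the 44 genes. An E2F core was present in 12 of 19 G1/S genes (63.2%), in 3 of 15 G2/M genes (20%) and in 10.9% of all 27025 genes of the table. A CHR was present in 11 of 15 G2/M genes (73.3%), in 4 of 19 G1/S genes (21.1%) and in 21.7% of all genes. A CHR together with a CCAAT box was present in 11 of 15 G2/M genes (73.3%), in 4 of 19 G1/S genes (21.1%) and in 8.61% of all genes. Among further genes of the same processes an E2F core was present in 21 of 35 replication genes (60%) and a CHR in 34 of 46 mitosis genes (73.9%). These matches describe letters in the windows and were not tested as binding sites. None of the 3 motifs was found in the windows of Ccne1, Tk1, E2f1, Tyms, Birc5 and Nusap1.

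The promoter stretches of 4 members show both kinds of arrangement. Each ends at the base just before the RefSeq start and is written 5′ to 3′ on the minus strand, where all 4 genes lie, with E2F cores, CHR and CCAAT boxes in capitals; a CCAAT box on the other strand reads ATTGG. Mcm6 at chr1:128359706-128359835 (GRCm38.p6) holds pairs of overlapping E2F cores and 2 CCAAT boxes. Cdk1 at chr10:69352913-69353112 holds E2F cores as well as CHR and CCAAT boxes. Ccnb2 at chr9:70421555-70421734 and Cdc20 at chr4:118437344-118437443 hold CHR and CCAAT boxes without an E2F core.
Mcm6: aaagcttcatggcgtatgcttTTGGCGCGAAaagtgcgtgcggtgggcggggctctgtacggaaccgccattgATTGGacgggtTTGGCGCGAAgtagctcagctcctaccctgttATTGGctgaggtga
Cdk1: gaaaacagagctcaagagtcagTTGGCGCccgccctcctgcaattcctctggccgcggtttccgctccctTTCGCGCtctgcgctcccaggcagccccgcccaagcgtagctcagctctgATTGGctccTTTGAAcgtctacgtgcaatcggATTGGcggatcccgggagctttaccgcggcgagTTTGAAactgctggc
Ccnb2: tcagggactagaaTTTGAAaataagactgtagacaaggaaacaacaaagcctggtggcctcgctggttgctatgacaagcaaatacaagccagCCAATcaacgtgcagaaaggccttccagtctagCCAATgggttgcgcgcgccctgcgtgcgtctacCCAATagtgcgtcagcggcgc
Cdc20: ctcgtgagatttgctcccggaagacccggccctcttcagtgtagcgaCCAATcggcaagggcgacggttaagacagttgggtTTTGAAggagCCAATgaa

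The replication and mitosis genes were expressed strongly in all 3 groups. Together they took 3150 to 3710 TPM in Control, 2970 to 3400 TPM in LPS and 2840 to 3180 TPM in LPS+Pilo. The median member had a mean level of 57.6 TPM over the 9 libraries, against 12 TPM for all tested genes. Means were at least 100 TPM for 12 members, between 10 and 100 TPM for 25 and under 10 TPM for 7. The highest were Mcm5 (253 TPM), a subunit of the helicase, Mcm3 (247 TPM), another, Cdc20 (247 TPM), the activator of the anaphase-promoting complex, and Pcna (232 TPM), the sliding clamp of the DNA polymerases. The lowest were Cenpf (2.04 TPM) and Cenpe (2.75 TPM), which encode large kinetochore proteins, Pola1 (4.19 TPM), the catalytic subunit of the primase-bound polymerase, and Ccne2 (4.29 TPM), the second cyclin E gene. The MCM subunits assemble in equal numbers, yet within a library the most abundant subunit RNA exceeded the least abundant by 5.93 to 10.2 times. Ccne1 exceeded Ccne2 by 14.6 to 27.5 times in each library.

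Many members deviated together in the same libraries. Control replicate 1 was the highest Control library for 35 of 44 members, against 62.4% of all tested genes, and Control replicate 2 was the lowest for 31, against 60.1%. LPS replicate 3 was the lowest LPS library for 29 of 44 members, against 66.3% of all genes, and LPS+Pilo replicate 1 was the highest of its group for 31, against 49.2%. The median deviation of the G2/M genes from their own means was 0.22 in Control replicate 1 and in LPS replicate 2, and it was -0.19 in LPS replicate 3. The G1/S genes deviated by 0.11, 0.17 and -0.04 in the same libraries, and all tested genes by 0.11, 0.12 and -0.12.

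These libraries also differed in how levels followed transcript length. Over all tested genes with a GENCODE M21 length, deviations correlated with the length of the longest transcript with a Spearman coefficient of 0.21 in Control replicate 1, 0.26 in LPS replicate 1 and 0.30 in LPS replicate 2. The coefficient was -0.31 in Control replicate 2, -0.16 in Control replicate 3, -0.38 in LPS replicate 3, and -0.08 to 0.08 in LPS+Pilo. These are correlations across genes, which are not independent replicates. The part of length in the differences between libraries was not tested.

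**Figure D1:**
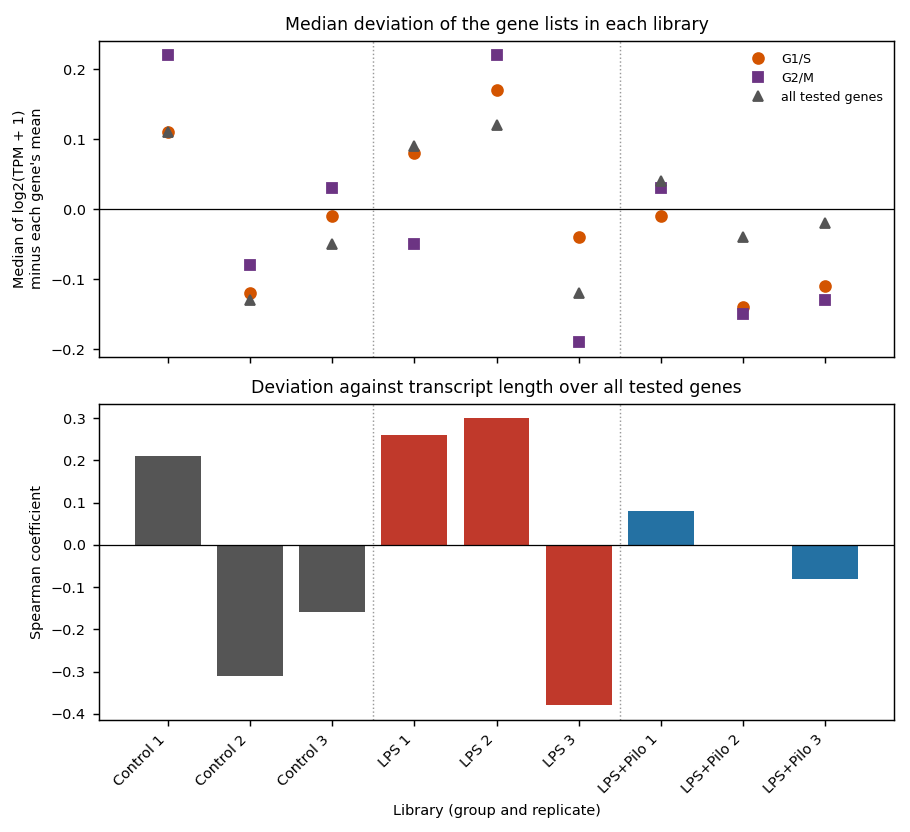
Upper panel: median deviation of log2(TPM + 1) from each gene's mean over the 9 libraries, for the G1/S genes, the G2/M genes and all tested genes, by library. Lower panel: Spearman coefficient of the deviations with transcript length over all tested genes. Control 1, LPS 1 and LPS 2 have coefficients of 0.21 to 0.30, and LPS 3 has the most negative, -0.38.

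The spread between libraries was wide for some members and narrow for others. Cenpf measured 3.62, 0.81 and 1.51 TPM in Control, 1.84, 4.44 and 0.73 TPM in LPS and 2.20, 0.99 and 2.21 TPM in LPS+Pilo, a range of 6.08-fold in which the groups overlapped throughout. Pcna measured 351, 207 and 199.8 TPM in Control, 289, 256 and 203 TPM in LPS and 214, 188 and 183 TPM in LPS+Pilo, with Control replicate 1 far above the rest. Mcm6 went with it, at 136, 74.1 and 85.7 TPM in Control, 117, 109 and 78.3 TPM in LPS and 91.1, 78.5 and 75.8 TPM in LPS+Pilo. At the other end stood E2f1, which encodes the founding E2F factor, with all 9 libraries between 63.9 and 76.1 TPM. The difference between groups made up a median of 27.7% of a member's variance over libraries, against 34.3% for all tested genes. The share exceeded 50% for 14 of 44 members (31.8%), against 33.1% of all tested genes.

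**Figure D2:**
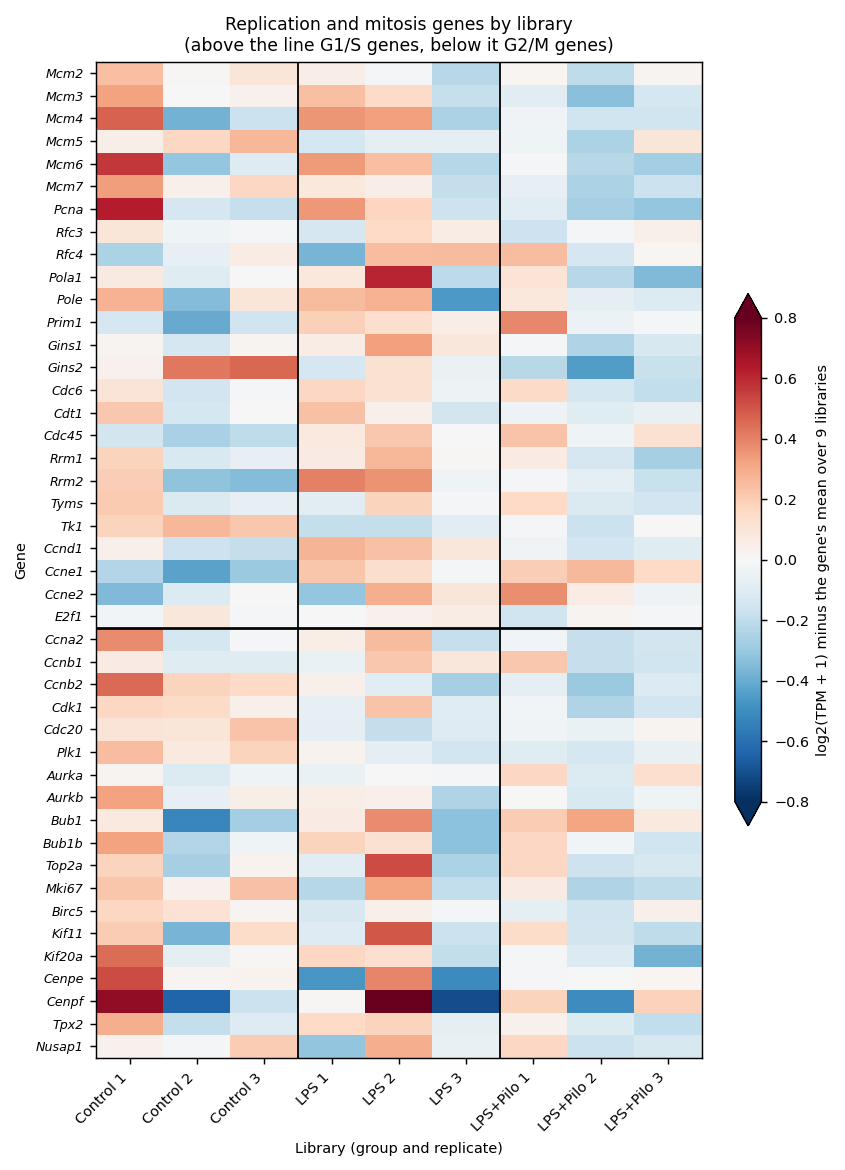
Deviation of log2(TPM + 1) from each gene's mean over the 9 libraries, for the 44 genes (rows) in each library (columns), red above and blue below the mean, with colour saturating at 0.8. The columns of Control 1 and LPS 2 are mostly red, with a median deviation of 0.18 each. Those of Control 2, LPS 3, LPS+Pilo 2 and LPS+Pilo 3 are mostly blue. Ccne1 and Tk1, among other members, part the Control columns from the treated ones.

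With LPS, most of the replication and mitosis genes did not pass, and the calls of Ccne1 and Tk1 depended on the libraries used. In LPS against Control 2 of 44 members were called, 1 higher (Ccne1) and 1 lower (Tk1), where 7.76% of all tested genes were called (4.12% higher and 3.64% lower). At an unadjusted p under 0.05 (limma) 5 members were higher and 6 lower, against 12.3% and 10.4% of all tested genes. Libraries of the groups compared did not overlap for 10 members, 5 higher and 5 lower, against 24.2% of all tested genes (11.2% higher and 13.1% lower). For 43 of 44 members the 95% interval of the difference lay within -1 and 1, and the exception was Cenpf (-0.89 to 1.12). That held for 86.1% of all tested genes. The count of called members was 5 without Control replicate 1 (3 higher and 2 lower) and 0 without Control replicate 2, Control replicate 3, LPS replicate 1 or LPS replicate 2. With Control replicate 1 and LPS replicate 3 both left out, a choice made after the data were seen, 12 members were called, 9 higher and 3 lower, where 32.3% of all tested genes were. For 29 of 44 members these were the highest Control and the lowest LPS library. Leaving both out raises the difference of such genes by construction, and the median over all tested genes rose from 0.07 to 0.20. Passes under this setting, here and below, therefore lend no support to a change with LPS.

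Ccne1 (ENSMUSG00000002068) encodes cyclin E, which with Cdk2 starts S phase. It measured 64.5, 56.2 and 61.6 TPM in Control, 88.7, 83.7 and 75.4 TPM in LPS and 87.1, 91.0 and 85.0 TPM in LPS+Pilo. Every treated library was above every Control library, and the treated groups overlapped each other. The rise with LPS was 0.44 ± 0.09 (SE), from 60.8 ± 4.18 to 82.6 ± 6.71 TPM (mean ± SD, n = 3 per group; limma adjusted p = 0.0185). The call was lost without Control replicate 2 (0.0710) or 3 (0.0675), without LPS replicate 1 (0.0692) or 2 (0.0763), and when only the groups compared were fitted (0.0617). The alternatives gave 0.00521 to 0.0763.

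Tk1 (ENSMUSG00000025574) encodes the thymidine kinase that salvages thymidine for DNA synthesis. It measured 119, 127 and 122 TPM in Control, 92.5, 92.2 and 99.2 TPM in LPS and 104, 93.7 and 106 TPM in LPS+Pilo. Again no treated library overlapped the Control range, this time from below. Tk1 fell by 0.37 ± 0.08 with LPS, from 123 ± 3.90 to 94.6 ± 3.95 TPM (n = 3 per group; limma adjusted p = 0.0195). The call was lost without Control replicate 2 (0.0753) or 3 (0.0803) and without LPS replicate 1 (0.0661) or 2 (0.0862). The alternatives gave 0.0111 to 0.0862.

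**Figure D3:**
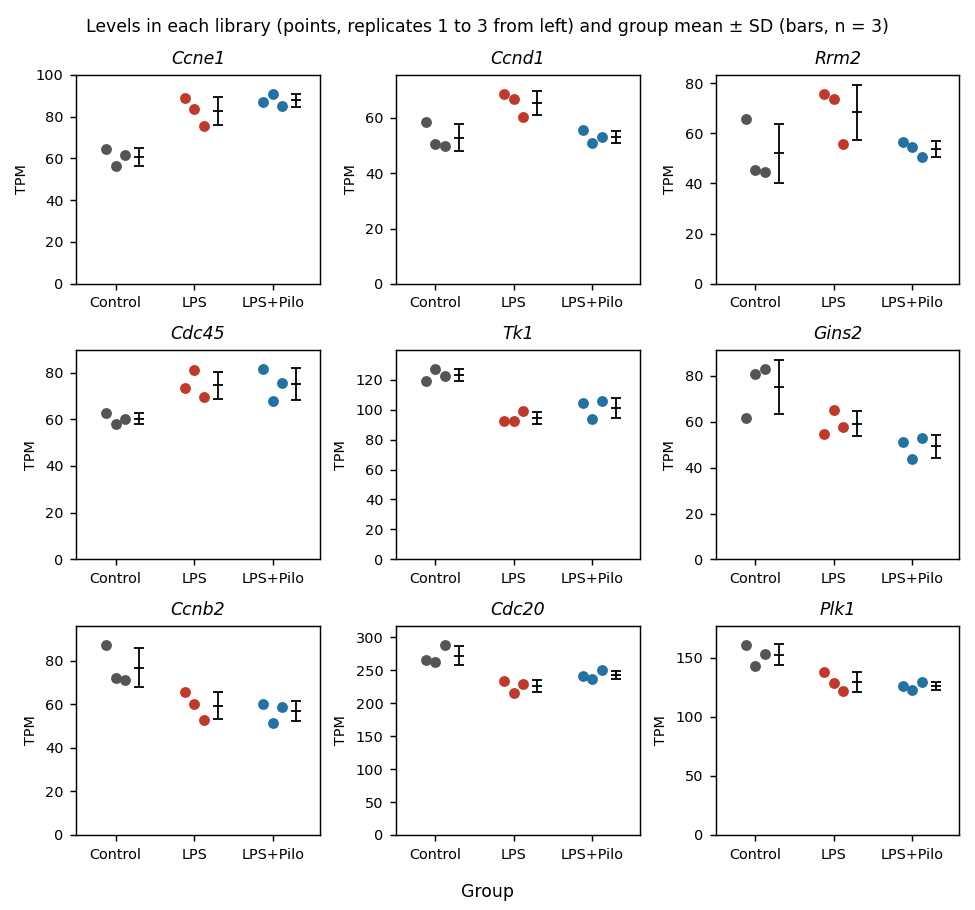
TPM of 9 members in each library, as points by group with replicates 1 to 3 from left to right, and the group mean with its SD (n = 3) beside them; each axis starts at 0. Ccne1 and Cdc45 sit above the Control points in both treated groups, Tk1, Ccnb2, Cdc20 and Plk1 below them, and Ccnd1 is above Control in LPS only. The members shown are not typical, since 28 of 44 overlapped Control in both treated groups. Among all tested genes, groups did not overlap for 24.2% in LPS against Control and 30.5% in LPS+Pilo against Control.

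The other G1/S regulators did not pass. Ccnd1, the cyclin D gene that links growth signals to the cycle, measured 58.4, 50.4 and 49.7 TPM in Control, 68.8, 66.9 and 60.4 TPM in LPS and 55.5, 51.0 and 53.0 TPM in LPS+Pilo. All LPS libraries lay above those of both other groups, which overlapped. The difference of LPS from Control was 0.30 ± 0.09 (limma adjusted p = 0.0903, from 0.00944 to 0.290 over the alternatives), and it passed without Control replicate 1, under quantile normalization and with Control replicate 1 and LPS replicate 3 both left out. Ccne2 (0.18) and E2f1 (0.01) had adjusted p of 0.618 and 0.955.

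Of the 11 genes that load and activate the helicase 0 passed with LPS (limma). Their median difference was 0.02, with a range of -0.33 to 0.30. At an unadjusted p under 0.05, 1 was higher and 2 lower, against 12.3% and 10.4% of all tested genes. Mcm5 measured 260.5, 283 and 303 TPM in Control, 228, 239.8 and 240.0 TPM in LPS and 246, 211 and 269 TPM in LPS+Pilo. Its LPS libraries were all below the Control libraries (-0.25 ± 0.10, adjusted p = 0.166), whereas those of LPS+Pilo overlapped them. Cdc45, the helicase activator, measured 62.6, 57.8 and 60.3 TPM in Control, 73.2, 81.0 and 69.5 TPM in LPS and 81.4, 67.8 and 75.7 TPM in LPS+Pilo. Both treated groups were above Control without overlap (LPS, 0.30 ± 0.10, adjusted p = 0.0963). The alternatives put it between 0.0335 and 0.311, below the threshold after removal of the length trend and with Control replicate 1 and LPS replicate 3 both left out.

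The subunits of the helicase did not move as a block. Mcm4 (0.17) and Mcm6 (0.07; -0.05 after centring on library medians and -0.02 after removal of the length trend) had positive differences with LPS, and Mcm2 (-0.17), Mcm3 (-0.05), Mcm5 (-0.25) and Mcm7 (-0.20) negative ones, with adjusted p of 0.166 or more. With Control replicate 1 and LPS replicate 3 both left out, Mcm4 (0.62, limma adjusted p = 0.00589) and Mcm6 (0.50, 0.0181) passed, as did 32.3% of all tested genes. Mcm7 passed after centring (-0.32, limma adjusted p = 0.0230) and after removal of the length trend (-0.25, 0.0268). Gins1 and Gins2, subunits of the same complex, had differences of 0.19 and -0.33 (adjusted p = 0.337 and 0.178). Gins2 passed without Control replicate 1 (-0.47, 0.0401) and with Control replicate 1 and LPS replicate 3 both left out (-0.45, 0.0297). The loading factor genes Cdc6 (0.10) and Cdt1 (0.02) also did not pass.

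The 6 genes of polymerases, primase, clamp and clamp loader had differences of 0.01 to 0.36 with LPS, and 0 passed (limma). At an unadjusted p under 0.05, 1 was higher and 0 lower, against 12.3% and 10.4% of all tested genes. The value of Pcna was 0.02, turning to -0.10 after centring and -0.01 under quantile normalization, and it was 0.28 without Control replicate 1 (adjusted p = 0.221) and 0.42 with LPS replicate 3 left out as well (0.0207). The others were Rfc3 (0.01) and Rfc4 (0.13), clamp loader subunit genes, Pole (0.02), the leading strand polymerase gene, and Pola1 (0.17). Prim1, which encodes the catalytic primase subunit, measured 11.3, 9.23 and 11.1 TPM in Control, 14.5, 13.8 and 13.03 TPM in LPS and 16.6, 12.1 and 12.4 TPM in LPS+Pilo. All treated libraries were above Control, by 0.36 ± 0.14 with LPS (adjusted p = 0.175). Among the nucleotide supply genes, Rrm2, the regulated subunit gene of ribonucleotide reductase, measured 65.6, 45.5 and 44.7 TPM in Control, 75.8, 73.6 and 55.7 TPM in LPS and 56.5, 54.4 and 50.4 TPM in LPS+Pilo. Control replicate 1 lay inside the LPS range. The difference was 0.40 ± 0.16 (adjusted p = 0.187) and passed without Control replicate 1 and with Control replicate 1 and LPS replicate 3 both left out. The alternatives gave 0.00205 to 0.462. Its partner gene Rrm1 (0.11) and the thymidylate synthase gene Tyms (0.02) did not pass.

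None of the 19 G2/M genes was called with LPS, against 7.76% of all tested genes. At an unadjusted p under 0.05 (limma) 3 were lower and 0 higher, against 10.4% and 12.3% of all tested genes. Those 3 were Ccnb2, Cdc20 and Plk1, and each lay below Control in all 3 LPS libraries. Ccnb2, a cyclin B gene, measured 87.4, 72.0 and 71.3 TPM in Control, 65.5, 59.9 and 52.8 TPM in LPS and 60.3, 51.6 and 58.8 TPM in LPS+Pilo. The difference with LPS was -0.37 ± 0.12 (adjusted p = 0.0985; 0.00739 to 0.219 over the alternatives). Cdc20 measured 265, 263 and 289 TPM in Control, 234, 216 and 229 TPM in LPS and 242, 237 and 249.9 TPM in LPS+Pilo, with -0.27 ± 0.07 for LPS (adjusted p = 0.0560; 0.0277 to 0.225). Plk1, a kinase gene of mitotic entry and spindle assembly, measured 161, 143 and 153 TPM in Control, 139, 129 and 122 TPM in LPS and 127, 123 and 129.97 TPM in LPS+Pilo, with -0.23 ± 0.08 for LPS (adjusted p = 0.118; 0.0271 to 0.296). Ccnb2 and Plk1 passed under quantile normalization, after centring on library medians and after removal of the length trend, and Cdc20 passed under quantile normalization and with Control replicate 1 and LPS replicate 3 both left out.

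The remaining G2/M genes showed no separation of LPS from Control. Cdk1, the kinase that drives mitosis, measured 178, 176 and 163 TPM in Control, 151, 186 and 148 TPM in LPS and 156, 134 and 143 TPM in LPS+Pilo, and its Control libraries overlapped those of LPS (-0.10, adjusted p = 0.610). Ccnb1, the other cyclin B gene, had a difference of 0.13 (adjusted p = 0.578) beside the -0.37 of Ccnb2. Aurka, an Aurora kinase gene of the spindle poles, measured 132, 121 and 127 TPM in Control, 125, 129.6 and 129 TPM in LPS and 146, 120.3 and 143 TPM in LPS+Pilo, with all groups overlapping. The passenger complex genes Aurkb (-0.15) and Birc5 (-0.14) did not pass. Ccna2, the cyclin A gene, measured 33.6, 23.2 and 25.3 TPM in Control, 26.6, 30.7 and 22.4 TPM in LPS and 25.2, 22.4 and 23.0 TPM in LPS+Pilo, with all groups overlapping (LPS, -0.04, adjusted p = 0.919).

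Mki67, which encodes the proliferation marker Ki-67, measured 13.4, 11.6 and 13.5 TPM in Control, 9.52, 14.3 and 9.75 TPM in LPS and 11.9, 9.41 and 9.70 TPM in LPS+Pilo. LPS replicate 2 was the highest of the 9 libraries and LPS replicate 1 the second lowest, so the LPS group spanned the Control range (-0.20 ± 0.17, adjusted p = 0.517). Top2a, the gene of the topoisomerase that untangles sister chromatids, measured 31.2, 22.7 and 28.0 TPM in Control, 25.8, 39.8 and 22.9 TPM in LPS and 30.8, 24.3 and 25.01 TPM in LPS+Pilo (0.08, adjusted p = 0.847). Bub1, a spindle checkpoint kinase gene, measured 8.96, 5.57 and 6.84 TPM in Control, 8.90, 11.3 and 6.54 TPM in LPS and 9.90, 10.8 and 8.97 TPM in LPS+Pilo (LPS, 0.28, adjusted p = 0.460). All 3 LPS+Pilo libraries lay above the Control range, the lowest by a small margin, while LPS overlapped it. With Control replicate 1 and LPS replicate 3 both left out, Bub1 passed with LPS (0.62, adjusted p = 0.0222).

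Spindle and kinetochore genes ranged from -0.39 to 0.12 with LPS, and 0 of 6 passed (limma; 0 at an unadjusted p under 0.05). Tpx2, which encodes a spindle assembly factor, measured 60.4, 42.9 and 45.6 TPM in Control, 54.9, 55.8 and 46.7 TPM in LPS and 50.3, 45.5 and 42.6 TPM in LPS+Pilo. Cenpe measured 4.27, 2.72 and 2.74 TPM in Control, 1.65, 3.81 and 1.57 TPM in LPS and 2.64, 2.66 and 2.71 TPM in LPS+Pilo. Kif20a, a kinesin gene of cytokinesis, measured 41.0, 28.2 and 30.1 TPM in Control, 33.7, 32.9 and 25.9 TPM in LPS and 29.7, 27.6 and 22.8 TPM in LPS+Pilo. In these 3 genes LPS overlapped Control. Kif11 (0.08), a kinesin gene of spindle bipolarity, Nusap1 (-0.10), a microtubule bundling gene, and the checkpoint gene Bub1b (-0.03) did not pass either.

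Set side by side, the G1/S genes had a median difference of 0.07 with LPS, 19 of 25 being positive, and the G2/M genes one of -0.09, 7 of 19 being positive. All tested genes had a median of 0.07, with 58.9% positive. Further genes of the same processes did not repeat this split. The 54 other mitosis genes had a median of 0.05, with 59.3% positive, and the 42 other replication genes one of 0, with 50% positive. Centring each library on its median, which shifts all genes alike, moved the medians to -0.05 for the G1/S genes, -0.21 for the G2/M genes and -0.05 for all genes, and 30 of 44 members kept their sign. Under quantile normalization they were 0.02, -0.12 and -0.01, with 36 signs kept, and after removal of the length trend 0.01, -0.16 and 0.02, with 34 kept. With Control replicate 1 and LPS replicate 3 both left out they were 0.23, 0.06 and 0.20, with 37 kept. Such scalings also turned the balance of all called genes, from 464 higher and 410 lower to 518 higher and 871 lower after centring and 614 higher and 902 lower under quantile normalization. With single libraries left out the G1/S median ran from -0.01 to 0.16 and the G2/M median from -0.17 to 0.05, the G1/S median turning negative without Control replicate 2 and the G2/M median positive without Control replicate 1 (0.05) or LPS replicate 3 (0.01). Summed over members, the ratio of G1/S to G2/M levels was 1.60 to 1.72 in Control, 1.69 to 1.86 in LPS and 1.62 to 1.64 in LPS+Pilo, so that LPS overlapped Control and lay above LPS+Pilo. Members are not replicates and were chosen with results known, so no test of the lists is given.

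**Figure D4:**
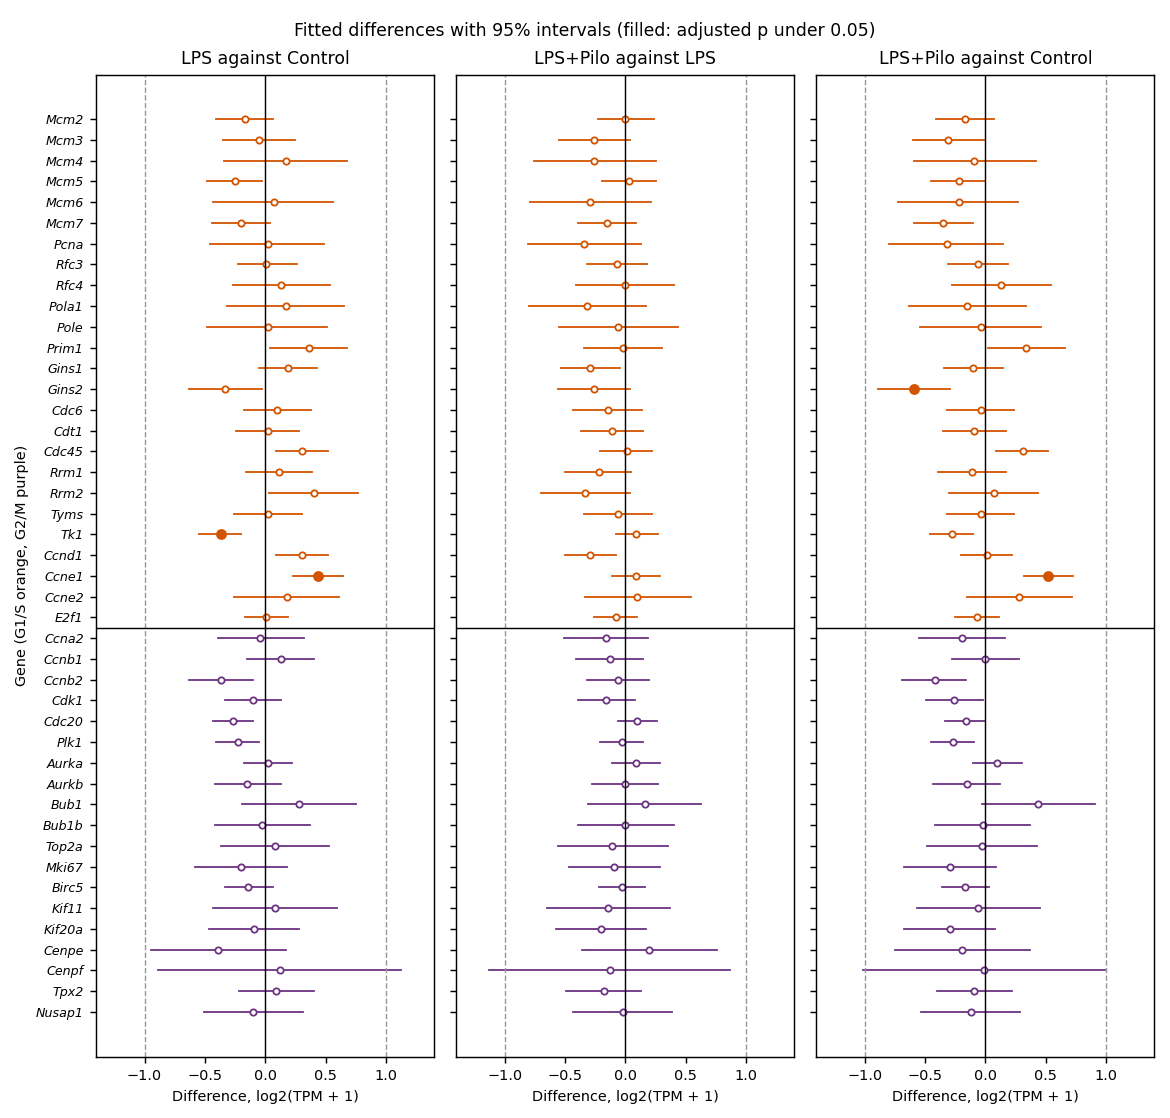
Fitted difference in log2(TPM + 1) with its 95% interval for each of the 44 genes in the 3 comparisons, G1/S genes above the line and G2/M genes below it; filled points have an adjusted p under 0.05. All intervals but those of Cenpf stay between the dashed lines at -1 and 1, and filled points are Ccne1 and Tk1 for LPS against Control and Ccne1 and Gins2 for LPS+Pilo against Control.

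Pilo added to LPS was followed by no called change in these genes. None of the 44 members was called, where 0.0444% of all tested genes were (0.00888% higher and 0.0355% lower). At an unadjusted p under 0.05 (limma) 0 members were higher and 2, Gins1 and Ccnd1, were lower, against 3.04% and 3.72% of all tested genes (6.76% in either direction). Groups did not overlap for 4 members, against 12.2% of all tested genes (5.58% higher and 6.63% lower). These were Gins1, Gins2 and Ccnd1, lower with Pilo, and Cdc20, higher. Gins1 measured 34.8, 31.1 and 34.7 TPM in Control, 35.8, 43.2 and 36.5 TPM in LPS and 34.0, 28.8 and 31.2 TPM in LPS+Pilo, a difference of -0.29 ± 0.11 (adjusted p = 0.631). Ccnd1 differed by -0.29 ± 0.09 (adjusted p = 0.533), with a 95% interval of -0.50 to -0.08, and its LPS+Pilo libraries lay inside the Control range. The largest absolute difference was that of Pcna, -0.34, with an interval of -0.81 to 0.13. Intervals of 43 of 44 members stayed within -1 and 1, with the exception of Cenpf (-1.13 to 0.87), against 93.0% of all tested genes. The G1/S genes had a median of -0.11 and the G2/M genes of -0.06, beside -0.05 for all tested genes. With single libraries left out these ran from -0.21 (without LPS replicate 3) to -0.09 and from -0.14 (without LPS replicate 3) to 0.07 (without LPS replicate 2), the G2/M median also being positive without LPS+Pilo replicate 2 (0.01). After centring they were -0.03 and 0.02, beside 0.04 for all genes. Of the members called against Control in either treated group, Ccne1 differed here by 0.09 (-0.11 to 0.29) and Tk1 by 0.09 (-0.08 to 0.27). Gins2 differed by -0.26 ± 0.13 (-0.56 to 0.04, limma adjusted p = 0.771).

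LPS+Pilo against Control shares the Control libraries with the comparison of LPS, so the values of the comparisons are not independent. In it 2 of 44 members were called, Ccne1 higher and Gins2 lower, where 10.2% of all tested genes were called (4.85% higher and 5.30% lower). At an unadjusted p under 0.05 (limma) 3 members were higher and 9 lower, against 11.6% and 12.3% of all tested genes. Intervals stayed within -1 and 1 for 43 members, again without Cenpf (-1.01 to 0.99), and for 84.7% of all tested genes. Ccne1 rose by 0.52 ± 0.09 to 87.7 ± 3.06 TPM (n = 3; limma adjusted p = 0.00613) and passed under all 19 alternatives, with adjusted p up to 0.0305. Gins2 (ENSMUSG00000031821), the second GINS subunit gene named above, measured 61.5, 80.7 and 83.0 TPM in Control, 54.6, 65.2 and 57.6 TPM in LPS and 51.2, 43.7 and 52.8 TPM in LPS+Pilo. All LPS+Pilo libraries lay below all libraries of the other groups, and LPS overlapped Control. Gins2 fell by 0.59 ± 0.13 in LPS+Pilo, from 75.1 ± 11.8 to 49.2 ± 4.89 TPM (n = 3 per group; limma adjusted p = 0.0216). That call was lost without Control replicate 2 (0.0686) or 3 (0.0911), without LPS+Pilo replicate 1 (0.0542) or 2 (0.0872) and after removal of the length trend (0.0572), with a range of 0.00557 to 0.0911.

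Other members were near the threshold in LPS+Pilo against Control. Adjusted p was 0.0502 for Ccnb2 (-0.42), 0.0543 for Tk1 (-0.28), 0.0674 for Plk1 (-0.27), 0.0774 for Mcm7 (-0.35) and 0.0783 for Cdc45 (0.31). Of 19 alternatives, Ccnb2 passed in 7, Tk1 and Mcm7 in 3 each, and Plk1 and Cdc45 in 2 each, as did Mcm3 (-0.31, adjusted p = 0.193). Removal of the length trend was among those in which Ccnb2, Mcm3, Mcm7, Cdc45 and Plk1 passed. Groups did not overlap for 13 members, 4 higher and 9 lower, against 30.5% of all tested genes (14.9% higher and 15.6% lower). Medians were -0.09 for the G1/S genes and -0.15 for the G2/M genes, beside 0.02 for all tested genes. Differences were positive for 2 of 19 G2/M genes and 7 of 25 G1/S genes, against 52.9% of all tested genes. The other mitosis genes were less one-sided, with 20 of 54 positive and a median of -0.07. Of the other replication genes 19 of 42 were positive, with a median of -0.05. With single libraries left out the G1/S median ran from -0.17 (without Control replicate 2) to 0.01 (without Control replicate 1) and the G2/M median from -0.24 to -0.04 in the same libraries.

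Other genes of the same pathways were taken from lists of replication, mitosis, G1/S control and inhibitor genes. With LPS, 1 of 42 other replication genes was called higher and 0 lower (limma). Of 54 other mitosis genes and 9 other G1/S control genes 0 passed. Among all tested genes 4.12% were called higher and 3.64% lower. At an unadjusted p under 0.05, 5 replication genes were higher and 2 lower, and 6 mitosis genes were lower and 0 higher. Of the G1/S control genes 1 was higher and 0 lower. Among all tested genes 12.3% were higher and 10.4% lower at that threshold. The called replication gene was Orc2, a subunit gene of the origin recognition complex. It measured 13.3, 11.8 and 13.3 TPM in Control, 22.3, 27.2 and 22.6 TPM in LPS and 20.1, 19.4 and 17.7 TPM in LPS+Pilo. Both treated groups were above Control without overlap. Orc2 rose by 0.86 ± 0.12 with LPS (adjusted p = 0.00197) and passed under all 19 alternatives. In LPS+Pilo against Control 1 of the 42 other replication genes was called higher and 2 lower, against 4.85% and 5.30% of all tested genes. Of the 54 mitosis and 9 G1/S control genes 0 passed there (limma). Orc2 rose by 0.54 ± 0.12 (limma adjusted p = 0.0161), a call lost without Control replicate 2 or 3 or LPS+Pilo replicate 1 or 2 (up to 0.0686). The single-strand binding gene Rpa3 fell by 0.48 (0.0383) and Uhrf1, a maintenance methylation factor gene, fell by 0.43 (0.0374). Rpa3 measured 37.9, 34.7 and 28.9 TPM in Control, 25.7, 30.1 and 30.3 TPM in LPS and 26.0, 22.2 and 23.3 TPM in LPS+Pilo. Uhrf1 measured 135, 107 and 116 TPM in Control, 116, 108 and 96.4 TPM in LPS and 94.5, 81.7 and 87.9 TPM in LPS+Pilo. Their LPS+Pilo libraries lay below Control while LPS overlapped it. Rpa3 held in 9 of 19 alternatives (0.0296 to 0.139) and was lost without Control replicate 1 or 2, LPS replicate 2 or any LPS+Pilo replicate. Uhrf1 held in 12 (0.00282 to 0.138) and was lost without Control replicate 1 or 3, LPS replicate 2 or any LPS+Pilo replicate. Myc, a driver of cell growth, was near 0, at 0.07 to 0.41 TPM, and was not tested. Whether RNA of the viral v-myc is counted under this mouse gene is not known here.

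Among inhibitors of the cell cycle and their partners, calls went in both directions. Of 24 tested, 3 were higher and 2 lower with LPS, where 4.12% and 3.64% of all tested genes were. At an unadjusted p under 0.05 (limma) 5 were higher and 3 lower, against 12.3% and 10.4% of all tested genes. In LPS+Pilo against Control 3 were higher and 3 lower, where 4.85% and 5.30% of all tested genes were. Unadjusted p was under 0.05 (limma) for 8 higher and 3 lower, against 11.6% and 12.3% of all tested genes. For LPS+Pilo against LPS 0 passed (limma). There 0 were higher and 1 lower at an unadjusted p under 0.05, against 3.04% and 3.72% of all tested genes. Cdkn1a, which encodes the Cdk2 inhibitor p21, measured 47.2, 36.5 and 46.6 TPM in Control, 87.1, 67.5 and 56.2 TPM in LPS and 80.8, 72.6 and 81.0 TPM in LPS+Pilo. All treated libraries exceeded all Control libraries. Cdkn1a rose by 0.67 ± 0.16 with LPS (adjusted p = 0.0333), which held in 10 of 19 alternatives with a range of 0.00697 to 0.106 and was lost without any 1 of 7 libraries (all but Control replicate 1 and LPS replicate 3), and by 0.84 ± 0.16 with LPS+Pilo (0.00942), which held in all 19. Cdkn2c, which encodes the Cdk4 and Cdk6 inhibitor p18, measured 6.74, 6.20 and 7.55 TPM in Control, 2.86, 4.19 and 3.15 TPM in LPS and 2.83, 2.86 and 3.19 TPM in LPS+Pilo. It fell by 0.84 ± 0.15 with LPS (0.00989; 0.0569 without Control replicate 3; range 0.00266 to 0.0569) and by 0.98 ± 0.15 with LPS+Pilo (0.00373).

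The stress gene Gadd45a measured 1.15, 0.50 and 0.72 TPM in Control, 6.64, 5.48 and 2.57 TPM in LPS and 5.98, 5.11 and 7.27 TPM in LPS+Pilo. It rose by 1.66 ± 0.28 with LPS (limma adjusted p = 0.00636) and by 2.00 ± 0.28 with LPS+Pilo against Control (0.00199). Mdm2, the ubiquitin ligase gene that restrains p53, measured 5.93, 3.94 and 4.26 TPM in Control, 9.66, 12.04 and 6.47 TPM in LPS and 9.67, 9.80 and 10.1 TPM in LPS+Pilo. All treated libraries of both genes lay above Control. Mdm2 rose by 0.84 (0.0397; 0.00125 to 0.146) and by 0.94 (0.0205; 0.00114 to 0.0789), and it passed in 9 and 13 of 19 alternatives. The call with LPS was lost without any 1 of the same 7 libraries, and that with LPS+Pilo without Control replicate 2 or 3 or any LPS+Pilo replicate. Lin37, a subunit gene of the MuvB complex that binds CHR elements, measured 27.4, 34.0 and 31.6 TPM in Control, 22.0, 22.5 and 20.3 TPM in LPS and 22.6, 20.2 and 23.1 TPM in LPS+Pilo. It fell by 0.50 ± 0.11 with LPS (0.0245; 0.00895 to 0.104) and by 0.48 ± 0.11 with LPS+Pilo (0.0239; 0.00744 to 0.0974). Its calls held in 13 and 14 of 19 alternatives and were lost without Control replicate 2 or 3 and without any replicate of the treated group. Pkmyt1, a kinase gene that inhibits Cdk1, fell by 0.31 ± 0.09 in LPS+Pilo against Control (0.0491), a call that held in 6 of 19 alternatives, with a range of 0.0284 to 0.201, and was lost without any 1 of the 9 libraries.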

How the data were processed

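Per the labels' protocols, TRIzol was used for RNA and the TruSeq RNA kit for libraries. The authors deposited a table of TPM for 55906 genes, 1 column per library, with 2 decimals; each library sums to 1000000 within rounding. The submitters' processing notes name the build GRCm39 and the tools DESeq2 1.24.0, STAR 2.7.1a and fastp 0.19.5, without their roles. How TPM were computed, with which annotation and strand setting, is not given in the sources used here. Overlapping or antisense genes may therefore share reads.

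Symbols came from GENCODE M21 by identifier, which named 52081 genes. The 11260 genes that reached 1 TPM in 3 or more libraries were fitted on the log2(TPM + 1) scale with limma 3.58.1 under R 4.3.3, using group means, a variance trend and 6 residual degrees of freedom. Tests were two-sided with Benjamini-Hochberg adjustment over all tested genes, and intervals are 95% intervals of single genes. The code was tested on simulated data. The members and lists were chosen with earlier results of these data known. Values were printed for every called member and, per role, for the members of highest mean TPM and of largest difference with LPS and with Pilo, and for up to 4 called genes per further list and comparison; Gins1, Cdc45, E2f1, Cenpf, Lin37 and Pkmyt1 were added after their values were seen. Transcript lengths were the longest in GENCODE M21. Alternatives changed the pseudocount, filter, scaling, libraries and fit. Lin54 was not analysed here.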

Additional observations from a re-analysis of the deposited data

How the results depend on the processing

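The 19 alternatives changed the pseudocount, the filter, the scaling, the libraries or the fit; leaving out Control replicate 1 and LPS replicate 3 together, and removing each library's trend with transcript length, were chosen after seeing the data. For LPS against Control, called genes numbered 1516 under quantile normalization, 1389 after centring on library medians, 483 when only the groups compared were fitted, 3586 without both libraries, 1629 after the length correction, and 414 to 1020 with single libraries left out. Called members numbered 6, 6, 1, 12, 6, and 0 to 5 in the same order. The G1/S median became -0.05 after centring and 0.23 without both libraries, and the G2/M median -0.21 and 0.06. With single libraries left out they ran from -0.01 to 0.16 and from -0.17 to 0.05.

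For LPS+Pilo against LPS, called genes numbered 1 with no filter, 1 under quantile normalization, 0 after centring, 18 without both libraries, 2 after the length correction, and 0 to 6 with single libraries left out, and 0 members were called in all 19 alternatives (limma). For LPS+Pilo against Control, called genes numbered 1726 under quantile normalization, 1967 without both libraries, 1890 after the length correction, and 642 to 1286 with single libraries left out. Members numbered 7 under quantile normalization, 5 after centring, 5 without both libraries, 6 after the length correction, and 1 to 3 with single libraries left out.

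In LPS against Control 30 of 44 members kept their sign after centring, 34 after the length correction, 36 under quantile normalization and 37 without both libraries. Among members called in any alternative, the sign turned for Pcna under quantile normalization (-0.01) and centring (-0.10), for Mcm6 under centring (-0.05) and the length correction (-0.02), for Tpx2 under centring (-0.03) and for Aurkb without both libraries (0.06). With single libraries left out Mcm4 ran from -0.01 to 0.42, Mcm6 from -0.11 to 0.32, Pcna from -0.13 to 0.28 and Tpx2 from -0.00 to 0.24. The cause was not tested for any of these shifts.

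With the replicate number as a block, 808 genes were called for LPS against Control, 1 for LPS+Pilo against LPS and 1064 for LPS+Pilo against Control. Members called under the block numbered 2, 0 and 3, the third adding Ccnb2. The block ended the calls of Mdm2 with LPS (limma adjusted p = 0.0510) and of Rpa3 (0.0621) and Pkmyt1 (0.0758) in LPS+Pilo against Control. Of 9 correlations between libraries of the same number, taken on deviations from group means, 2 exceeded 0.1 (-0.23 to 0.17). Libraries of unlike numbers were not compared, so these values cannot decide whether the numbers pair the libraries. With 3 libraries per group and no read counts, precision at low levels such as those of Cenpf could not be separated from counting error.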
